A study of Mus musculus with 3 samples.

Results

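The transcription factors of the GATA, Tal1 and Klf1 network were followed across 3 Affymetrix arrays of mouse LSK cells, a surface-marker fraction of blood-forming cells that is rich in stem cells and early progenitors. The members were all probe sets annotated to Klf1, Gata1, Gata2, Tal1, Lyl1, Lmo2, Ldb1, Nfe2, Zfpm1 and Bcl11a, which came to 18 of 45101 probe sets and 10 of 18194 named genes. Their choice used no measured value of its own, but earlier results of these arrays were known when it was made. Of the 10 factors, 7 had 1 probe set and 3 had several.

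There was 1 array for each genotype, labelled WT LSKs, p53 KO LSKs and P53 KO/MEF KO (DKO) LSKs. Mef is the ETS family protein that Elf4 encodes, so by the labels DKO cells lack an ETS factor as well as p53, and both mutant groups lack p53. No treatment, strain or age is given in the sources used here, nor how many animals or sorts stand behind an array. No genotype was replicated, so every difference below is between a pair of arrays, carries no error and was not tested. No order of levels given here can be set against a spread between replicates.

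The network works as a multiprotein complex on DNA. GATA factors bind the letters GATA, Tal1 or Lyl1 binds an E-box together with an E protein, and the adaptors Lmo2 and Ldb1 hold them together. Gata2, Lyl1 and Lmo2 are best known from stem and progenitor cells, while Gata1, its cofactor Zfpm1 (Friend of GATA) and Klf1, which binds CACCC boxes, drive red cell genes. As erythroid cells mature, Gata1 replaces Gata2 at shared sites. Nfe2 is needed for platelet release, and Bcl11a silences fetal globin genes and is required for lymphoid development.

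Promoter sequences are shown for Klf1, Gata1 and Zfpm1, the factors that were lower together on the DKO array, and for Lyl1, the factor that was furthest the other way there. Each window runs from 250 bases before the annotated start to 50 after it, in the RefSeq table of build GRCm38.p6, and 8 of the 10 factors had an entry, with 12 starts in all. The windows are Klf1 at chr8:84901732-84902031, strand +, Gata1 at chrX:7967861-7968160, strand -, Zfpm1 at chr8:122281891-122282190, strand +, and Lyl1 at chr8:84701207-84701506, strand +. Capitals mark, on either strand, the GATA motif (GATA with A or T before it and A or G after it), the CACCC box (CCNCACCC) and an ETS core (CNGGAAG).
Klf1: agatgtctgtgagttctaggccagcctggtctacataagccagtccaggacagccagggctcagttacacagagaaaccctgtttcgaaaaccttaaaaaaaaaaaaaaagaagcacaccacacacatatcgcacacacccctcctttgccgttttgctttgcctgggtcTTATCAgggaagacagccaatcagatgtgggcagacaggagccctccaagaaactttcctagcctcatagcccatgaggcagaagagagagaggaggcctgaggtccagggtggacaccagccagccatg
Gata1: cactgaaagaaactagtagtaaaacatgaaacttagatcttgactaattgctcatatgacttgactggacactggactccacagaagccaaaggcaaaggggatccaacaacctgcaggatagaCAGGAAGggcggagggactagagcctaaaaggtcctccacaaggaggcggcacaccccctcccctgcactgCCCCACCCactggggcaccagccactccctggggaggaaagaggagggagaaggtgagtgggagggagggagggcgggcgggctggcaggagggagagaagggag
Zfpm1: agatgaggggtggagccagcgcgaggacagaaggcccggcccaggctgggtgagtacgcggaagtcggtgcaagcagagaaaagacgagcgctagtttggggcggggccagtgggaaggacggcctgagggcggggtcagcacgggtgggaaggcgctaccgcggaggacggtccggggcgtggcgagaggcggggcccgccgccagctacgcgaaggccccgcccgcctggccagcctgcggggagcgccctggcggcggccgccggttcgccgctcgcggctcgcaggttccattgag
Lyl1: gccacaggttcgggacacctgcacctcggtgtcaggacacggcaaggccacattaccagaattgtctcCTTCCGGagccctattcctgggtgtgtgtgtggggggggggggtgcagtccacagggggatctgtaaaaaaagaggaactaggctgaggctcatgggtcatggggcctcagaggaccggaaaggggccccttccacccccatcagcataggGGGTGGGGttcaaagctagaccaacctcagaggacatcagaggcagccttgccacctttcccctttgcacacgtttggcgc

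The Klf1 window held 1 GATA motif, at position -80 from the start, followed by an E-box (CANNTG) at position -59, and neither of the other motifs. Gata1 had no GATA motif here, but an E-box at -198, an ETS core at -126 and a CACCC box at -55. Zfpm1 held no match to any of these motifs, E-box included, and so has no capitals. Lyl1 held an E-box at -235, an ETS core at -182 and a CACCC box at -31. Among 32851 windows of the same length, 29.8% held the GATA motif, 16.6% the CACCC box, 31.9% the ETS core and 72.3% an E-box. Of the 12 windows of the factors, 3 held a GATA motif, 4 a CACCC box, 4 an ETS core and 7 an E-box. A match describes letters in a window and is not evidence of binding.

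The deposited signals already had the same mean on every array after trimming 2% at each end (500.0), with medians of 98.0 on WT, 105 on p53 KO and 129 on DKO. Differences were taken on the log2 scale, with signals under a floor of 110.4, the median of all signals, set to that floor. All 10 factors stood over the floor on all 3 arrays. Kit, a defining LSK marker, had signals of 4996 on WT, 2522 on p53 KO and 4873 on DKO, so it was lower on the p53 KO array, while Ly6a (Sca-1) was not analysed here. Cd34, a progenitor surface marker, was at 2230, 2442 and 6633. Among markers of cells that an LSK sort should exclude, all 12 granulocyte, 9 monocyte and 8 measured B cell genes were over the floor on every array. Of the red cell genes, described further on, 32 of 34 were over the floor on each array. Of all probe sets, 47.3% on WT, 48.9% on p53 KO and 53.8% on DKO were at or over it. Some B cell genes were near the floor on WT, such as Blk at 130 and Igll1 at 136. The summed signals of these markers, in the order WT, p53 KO and DKO, were 129995, 223043 and 126751 for granulocytes, 24145, 61356 and 25258 for monocytes, and 1792, 6549 and 2907 for B cells. The p53 KO array thus stood apart in these sums, though the early granule genes Elane (800, 1719 and 2308) and Ctsg (5071, 10135 and 14770) were highest on DKO. Of 7 T cell genes, 1, 3 and 2 were over the floor in the same order, and Cd3e, Cd3g and Cd4 were under it on every array. Elf4 itself had signals of 57.4, 182 and 151, so it was under the floor on WT. On DKO it went against the label in standing above its WT signal, but it stood below its p53 KO signal. The sources used here do not give whether its probe set lies in the deleted part, so DKO means the array so labelled, and every direction involving DKO rests on that label. The p53 gene was not analysed here. Actin, an RNA quality control, gave ratios of 3' to 5' signal of 8.29, 6.20 and 9.19. The same ratio for Gapdh came to 5.85, 6.61 and 5.90, and the part of RNA quality in the differences was not tested.

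Klf1 and Gata1 were the factors with the widest spread over the arrays. Klf1, the zinc finger activator that red cell genes depend on, had a signal of 12847 on WT, 9033 on p53 KO and 1972 on DKO. Gata1, the GATA factor of erythroid cells and megakaryocytes, had signals of 4923, 3855 and 1422 in the same order. The step to the DKO array was much larger than that to the p53 KO array for both genes. Klf1 was 6.51-fold lower on DKO than on WT (log2 difference -2.70) and 4.58-fold lower than on p53 KO (-2.20), against -0.51 for p53 KO versus WT. Gata1 was 3.46-fold lower on DKO than on WT (-1.79) and 2.71-fold lower than on p53 KO (-1.44), against -0.35 for p53 KO versus WT. The 3 differences of a gene are not independent, since each array enters a pair of them.

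Zfpm1, the cofactor through which Gata1 both activates and represses, showed the same order at a smaller size. Its brighter probe set had signals of 3371 on WT, 3338 on p53 KO and 1644 on DKO. The WT and p53 KO arrays were nearly equal (-0.01), and DKO was lower than WT by 2.05-fold (-1.04) and lower than p53 KO by 2.03-fold (-1.02). The dimmer probe set, near the floor at 179, 173 and 113, gave -0.66 and -0.61 for the same comparisons. Zfpm1 sat at the edge of the 2-fold limit: its difference from WT was -0.97 after quantile normalization, -0.98 after cyclic loess and -0.85 as the mean of both probe sets.

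Gata2, the GATA factor of stem cells and early progenitors, did not follow Gata1. Its signals were 1590 on WT, 1297 on p53 KO and 2024 on DKO, and the dimmer probe set read 806, 743 and 1196. Both probe sets were thus highest on the DKO array and lowest on the p53 KO array. Log2 differences for the brighter probe set were -0.29 for p53 KO versus WT, 0.35 for DKO versus WT and 0.64 for DKO versus p53 KO, all under 2-fold. Taken as a ratio within each array, Gata1 over Gata2 was close on WT and p53 KO (a change of -0.06 on the log2 scale) and 4.41-fold lower on DKO than on WT (-2.14).

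**Figure D1:**
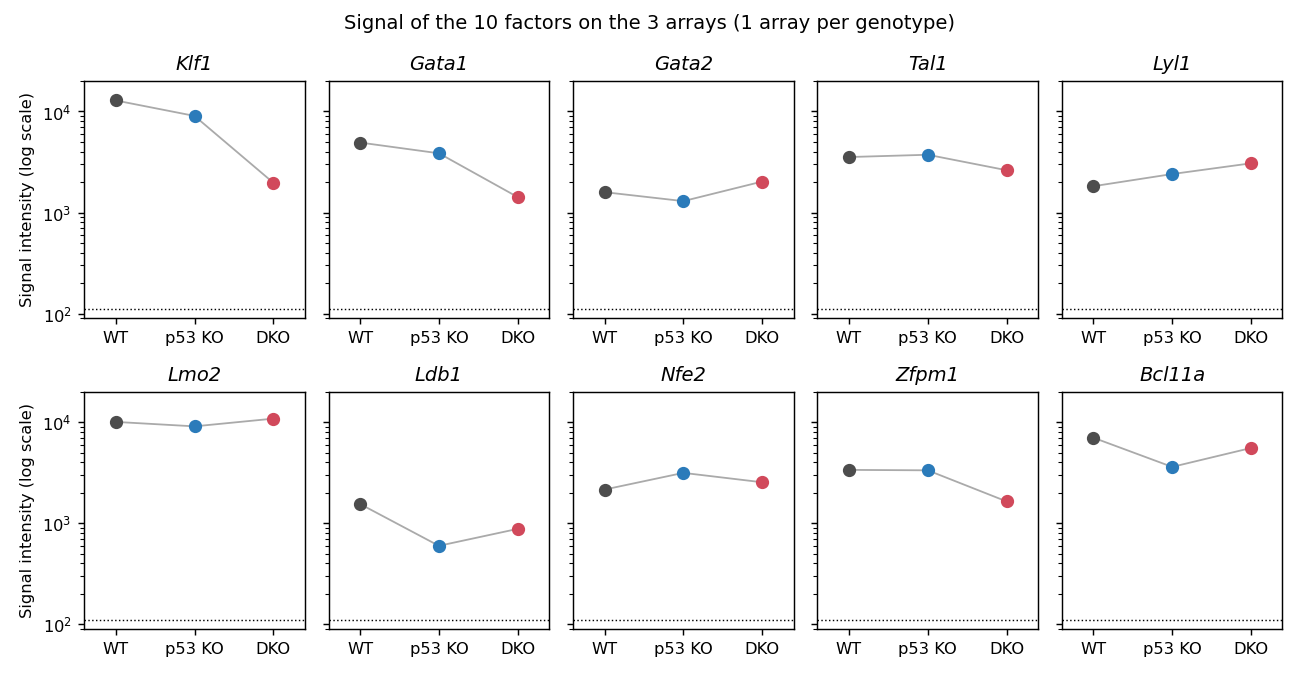
Signal intensity (log axis) of the probe set used for each of the 10 factors by array, with 1 point per array, grey lines joining the points for the eye, and the floor of 110.4 dotted. Klf1 goes from 12847 on WT to 1972 on DKO and Gata1 from 4923 to 1422, while Lmo2 stays between 9088 and 10834.

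The basic helix-loop-helix pair showed a milder contrast of the same kind. Tal1, which is required to form blood and later for red cells and platelets, had signals of 3539 on WT, 3729 on p53 KO and 2622 on DKO. Lyl1, its close relative in stem and lymphoid progenitor cells, had 1821, 2403 and 3068. Tal1 was therefore lowest and Lyl1 highest on the DKO array. Tal1 differed from WT by 0.08 on p53 KO and -0.43 on DKO, and Lyl1 by 0.40 and 0.75. Neither gene reached 2-fold in any comparison, but Tal1 over Lyl1, as a ratio within the array, was 2.27-fold lower on DKO than on WT (-1.19), against -0.32 for p53 KO versus WT.

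The adaptors of the complex parted. Lmo2, the bridge between Tal1 and GATA factors, had the narrowest spread of the 10 factors, with signals of 10058 on WT, 9088 on p53 KO and 10834 on DKO, a span of 1.19-fold. Ldb1, which dimerizes to bring distant enhancers to their genes, had 1547, 598 and 879. Ldb1 was thus highest on WT, as were Klf1, Gata1 and Zfpm1, but it was lowest on p53 KO, whereas they were lowest on DKO. It was 2.59-fold lower on p53 KO than on WT (-1.37) and 1.76-fold lower on DKO than on WT (-0.82), and was higher on DKO than on p53 KO by 0.56. A single probe set reported Ldb1, so no further probe set could be set beside it.

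Nfe2, the large subunit of the megakaryocyte and erythroid factor NF-E2, was highest on the p53 KO array. Its signals were 2153 on WT, 3149 on p53 KO and 2543 on DKO. The differences were 0.55 for p53 KO versus WT, 0.24 for DKO versus WT and -0.31 for DKO versus p53 KO, so Nfe2 did not share the pattern of Klf1 and Gata1.

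Bcl11a, the repressor of fetal globin genes, had 7 probe sets, the most of any factor. The brightest had signals of 7013 on WT, 3608 on p53 KO and 5548 on DKO, the next 2863, 1575 and 2688, and the next again 2137, 1314 and 2137. All of these were lowest on the p53 KO array, with differences from WT of -0.96, -0.86 and -0.70. On DKO they differed from WT by -0.34, -0.09 and 0.00. A dimmer probe set at 456, 148 and 342 ran the same way, with -1.62 for p53 KO versus WT. A further pair designed from the same sequence record read 276, 67.5 and 61.9, and 148, 28.8 and 28.5, and so was over the floor on the WT array only. That pair differs from the brighter probe sets on DKO, where it was lower than WT by at least -1.33 and at least -0.42. The last probe set was under the floor on all 3 arrays, at 15.8, 23.2 and 52.0. The summed signals of granulocyte, monocyte and B cell markers given above were highest on the p53 KO array, and their part in its lower Ldb1 and Bcl11a signals was not tested.

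**Figure D2:**
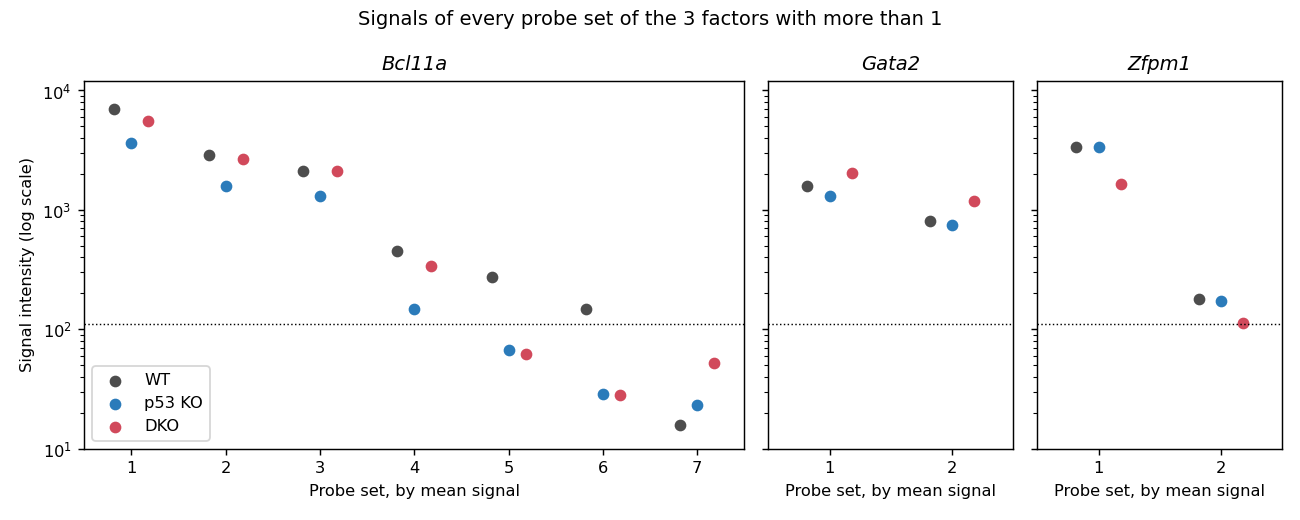
Signal intensity (log axis) of every probe set of Bcl11a, Gata2 and Zfpm1, numbered by mean signal, with 1 point per array and the floor of 110.4 dotted. For Bcl11a the 4 brightest probe sets are lowest on the p53 KO array, whereas the next 2 are over the floor on the WT array only.

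Set side by side, 1 of the 10 factors (Ldb1) was at least 2-fold lower on p53 KO than on WT, where 3.19% of 12597 measured genes were. On DKO versus WT there were 3 (Klf1, Gata1 and Zfpm1), with 3.10% of measured genes, and on DKO versus p53 KO the same 3 factors, with 5.93%. At least 2-fold higher were 0 factors in every comparison, where 6.51%, 5.22% and 4.10% of measured genes were. The median difference of the 10 factors was -0.22, -0.39 and -0.03 for p53 KO versus WT, DKO versus WT and DKO versus p53 KO, beside 0.00, 0.07 and 0.11 over all measured genes, and the factors' median for DKO versus p53 KO was 0.03 after quantile normalization. Counted from the lowest difference for DKO versus WT, Klf1 stood at rank 13, Gata1 at 78 and Zfpm1 at 354 of 12597 genes. For p53 KO versus WT, Ldb1 stood at rank 121 and Bcl11a at 473. The array with the lowest signal was DKO for 4 factors, p53 KO for 4 and WT for 2. Over measured genes the shares were 23.0%, 36.2% and 40.8%. In these shares, arrays tied at the floor were counted for WT, or else for p53 KO, and never for DKO. No factor was under the floor, so the counts and the shares are not a like comparison.

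**Figure D3:**
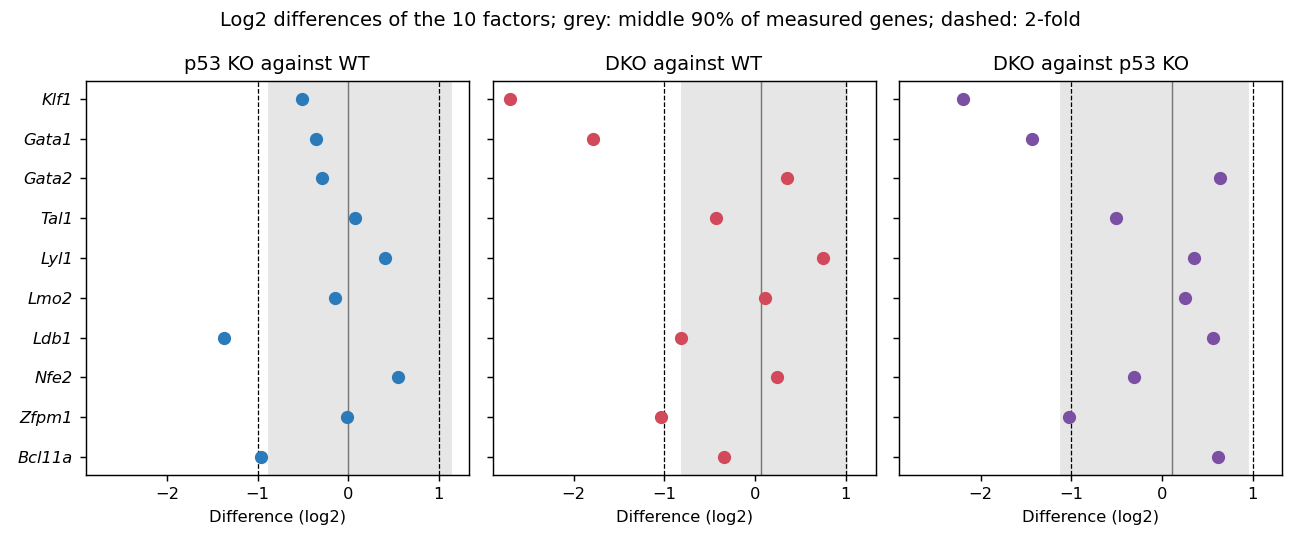
Log2 difference of each factor in the 3 comparisons, 1 point per factor, with the middle 90% of 12597 measured genes in grey, their median as a grey line and 2-fold limits dashed. Klf1 (-2.70) and Gata1 (-1.79) lie far below the grey band for DKO versus WT, and Ldb1 (-1.37) lies below it for p53 KO versus WT.

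Named genes with the most similar pattern were sought for the 4 factors that spanned at least 2-fold, as the distance between log2 signals over the 3 arrays after removing each gene's mean, among 7693 genes. Of all measured genes, 18.8% spanned 2-fold. For Klf1 they were Aqp1, the red cell water channel (11297, 9034 and 1649 on WT, p53 KO and DKO; distance 0.19), the erythroid membrane protein gene Ermap (19247, 16391 and 2970; 0.22) and Garem1, an adaptor of growth factor signalling (1848, 1024 and 251; 0.24). For Gata1 they were Samd14 (1386, 1021 and 387; 0.06), Epor, the erythropoietin receptor (1345, 1068 and 420; 0.09), and Stx2, a membrane fusion protein (3990, 3421 and 1292; 0.12). For Ldb1 they were Timm8a1 (distance 0.02), Gnb1l (0.03) and Emc6 (0.05), and for Zfpm1 the purine enzyme gene Pnp (0.03), Ifrd2 (0.04) and the replication origin gene Orc1 (0.04). With 3 arrays a small distance is easily reached, and it is given as a description only.

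Red cell genes, many of them textbook targets of Gata1 and Klf1, were lower on the DKO array and for the most part higher on the p53 KO array. Of 40 listed genes, 34 had a single-gene probe set and 32 were measured. For DKO versus WT, 20 of 32 were at least 2-fold lower, beside 3.10% of all measured genes. By that measure 0 were higher, beside 5.22%, and the list's median was -1.21. Aqp1 was at -2.78, Blvrb, a haem breakdown enzyme, at -2.71, Ermap at -2.70 and the blood group gene Kel at -2.45. For DKO versus p53 KO, 27 of 32 passed 2-fold downward around a median of -2.37, beside 5.93% of all measured genes. The largest differences were those of the membrane protein gene Epb42 (-4.00), Rhd (-3.84), Kel (-3.59) and Trim10 (-3.46). By its other probe set Epb42 was lower by at least -1.48.

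For p53 KO versus WT the red cell genes did not run with Klf1 and Gata1. While Klf1 and Gata1 were lower by sign (-0.51 and -0.35), 26 of the 32 genes were higher. The list's median was 0.88 beside 0.00 over all measured genes, and 12 of 32 were at least 2-fold higher, beside 6.51%. Dmtn, a membrane skeleton protein, went from 385 on WT to 2509 on p53 KO (2.70), Alas2, the first enzyme of erythroid haem synthesis, from 1787 to 11459 (2.68), Epb42 from 1199 to 6526 (2.44) and E2f2 from 1270 to 5809 (2.19). For Dmtn the other probe sets gave as little as 0.43, and for Epb42 the other gave at least 1.48. Markers of other lineages were higher on the same array, with medians of 1.05 for granulocytes, 1.47 for monocytes and 2.23 for B cells, and their part was not tested. The 6 genes that were lower by sign were Car1, an erythroid carbonic anhydrase (-1.42), Epor (-0.33), Aqp1 (-0.32), Ermap (-0.23), Blvrb (-0.16) and Ppox (-0.06). Aqp1, Ermap and Epor are also among the genes nearest to Klf1 or Gata1 in pattern. Nearness was taken over these same arrays, so this overlap is no separate observation.

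The summed signal of the 34 red cell genes was 183582 on WT, 279055 on p53 KO and 75576 on DKO, and 32 of 34 were over the floor on each array. Hba-a1 and Hbb-bh1 were under the floor on all 3 arrays by the probe sets named to them alone, and Hbb-b1 was read only by probe sets shared between genes. In RNA from a sorted population, fewer erythroid cells and less RNA per cell cannot be told apart, and the part of erythroid cells in the lower Klf1, Gata1 and Zfpm1 signals on DKO was not tested.

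Stem cell partners of the complex were higher on the p53-null arrays, most on DKO. Runx1, Erg and Fli1 bind together with Gata2, Tal1, Lyl1 and Lmo2 at enhancers of blood stem cells. Erg had signals of 1368 on WT, 2094 on p53 KO and 3262 on DKO, Fli1 had 1342, 2128 and 2922, and Runx1 had 2002, 2614 and 3028. All 3 genes were in the same order, WT lowest and DKO highest, as was Lyl1. Differences for DKO versus WT were 1.25 for Erg, 1.12 for Fli1 and 0.60 for Runx1. Thus 2 of 3 were at least 2-fold higher, beside 5.22% of all measured genes, and for p53 KO versus WT 0 of 3 were, beside 6.51%. The median of the 3 genes for DKO versus WT, 1.12, was 0.66 with the mean over all probe sets. Of the 2 Erg probe sets, 1 was measured. Probe sets of Fli1 gave 1.11 and 1.12 for DKO versus WT and those of Runx1 0.31 to 1.15, but for p53 KO versus WT they ran from 0.09 to 0.66 and from -0.34 to 0.39. The summed signal of 5 stem and progenitor markers (Kit, Cd34, Flt3, Cd48 and Slamf1) was also highest on DKO, at 11158 on WT, 8219 on p53 KO and 19217 on DKO, with all 5 over the floor, and its part in these differences was not tested.

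Among the E proteins, Lmo, Ldb and Ssbp partners, 12 genes were listed and 10 measured, and by the probe sets used 0 were at least 2-fold different in any comparison. Tcf4, an E protein, came nearest, with signals of 1903, 1805 and 3478 and a difference of 0.87 for DKO versus WT and 0.95 for DKO versus p53 KO, and another of its probe sets reached 1.09 for DKO versus WT. Tcf12, another E protein, was at 7918, 6969 and 7760, and Ssbp2, which stabilizes Ldb1, at 4252, 4242 and 4719, so by these brightest probe sets both were nearly level. Over all measured probe sets, DKO versus WT ran from -0.66 to 0.80 for Tcf12 and from 0.15 to 0.99 for Ssbp2. Ssbp3, of the same family as Ssbp2, was lower on p53 KO (-0.54) and DKO (-0.41) than on WT. Lmo1 was under the floor on WT and at least 0.94 higher on p53 KO, a bound that leaves 2-fold possible. The GATA factors outside the set were dim: of Gata3, Gata4, Gata5, Gata6 and the cofactor gene Zfpm2, 1 was over the floor on WT, 0 on p53 KO and 3 on DKO, none over 209.5.

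Co-repressors that the complex recruits were mostly close between arrays. All 17 listed genes were measured, and the medians were -0.38 for p53 KO versus WT, -0.11 for DKO versus WT (0.01 with the mean over probe sets) and 0.17 for DKO versus p53 KO. At least 2-fold lower than WT were 2 of 17 on p53 KO and 2 of 17 on DKO, beside 3.19% and 3.10% of all measured genes. Higher than WT by that measure were 0, beside 6.51% and 5.22%. Gfi1b, a repressor that works with Gata1 in erythroid cells, had signals of 2754, 1029 and 824 and was lower than WT by -1.42 and -1.74. Unlike Gata1, Gfi1b was already low on the p53 KO array. Mbd2, which reads DNA methylation, had 3580, 3786 and 1602, so it was low on DKO only (-1.16 against WT, -1.07 by its other probe set). Mta1, a subunit of the NuRD complex that Zfpm1 and Bcl11a recruit, had 591, 255 and 611, lowest on p53 KO (-1.21) like Bcl11a. The co-repressor gene Cbfa2t3, a standing part of the Tal1 complex, was at 1838, 1436 and 1875.

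Of the partners and rivals of Nfe2, 6 of 7 were measured, and their medians were 0.17 for p53 KO versus WT and -0.12 for DKO versus WT (0.02 after quantile normalization). Small Maf proteins pair with Nfe2 on DNA, and Bach proteins compete for the same sites. By its brightest probe set Bach2 was highest on p53 KO, at 458, 1061 and 527 (1.21 against WT), while its 3 probe sets ran from -1.83 to 0.35 for DKO versus p53 KO. The sum of B cell markers was highest on p53 KO too, and its part was not tested. Mafg, at 730, 942 and 462, was lowest on DKO (-1.03 against p53 KO and -0.66 against WT, though 0.40 against WT by its other probe set). Nfe2l2, the stress regulator related to Nfe2, was lower on both p53-null arrays, at 4731, 2952 and 2523 (-0.68 and -0.91).

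Platelet genes, controlled by Gata1, Fli1 and Nfe2, did not follow Gata1 in the comparisons with WT. Of 18 listed genes 16 were measured. At least 2-fold higher on p53 KO than on WT were 8 of 16, beside 6.51% of all measured genes, and the list's median was 0.98. Ppbp, a platelet chemokine, led at 158, 3292 and 118 on WT, p53 KO and DKO, and Tubb1, the platelet tubulin that Nfe2 controls, was at 293, 706 and 238. For DKO versus WT the median was 0.42. At least 2-fold lower were 0 of 16, beside 3.10% of all measured genes, whereas Gata1 was (-1.79). For DKO versus p53 KO, where Gata1 was lower too (-1.44), the list's median was -0.22. By 2-fold or more, 4 of 16 genes were lower, beside 5.93% of all measured genes. Selp, the platelet selectin, was highest on DKO at 269, 591 and 740. Itga2b, an integrin of megakaryocytes and stem cells, was also higher there, at 1215, 1975 and 2366 (0.96 against WT). The list's summed signal was 22613, 32087 and 28926, and 13, 15 and 15 of 16 were over the floor. A single gene, F2r, made up much of each sum, at 15814, 15128 and 18035, so the sums say little of the other genes. The part of the higher markers of other lineages on p53 KO was not tested here either.

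Mast cell and basophil genes, which Gata2 and Mitf control, numbered 10, of which 9 were measured. Cpa3, the mast cell carboxypeptidase, had signals of 613, 497 and 2020 and was 3.30-fold higher on DKO than on WT (1.72). Like Gata2 it was lowest on p53 KO and highest on DKO. Of the 9 genes, Cpa3 alone was at least 2-fold higher on DKO than on WT, beside 5.22% of all measured genes, and the median was 0.32. On p53 KO the basophil protease gene Mcpt8 (1.75) and Hdc, which makes histamine (1.39), were at least 2-fold higher than on WT, beside 6.51%. The mast cell genes Fcer1a, Tpsb2 and Cma1 were under the floor on WT and p53 KO by the probe sets used, and Tpsb2 on DKO as well. Ms4a2, also a mast cell gene of the list, was over it on every array, at 441, 444 and 540. Of the 10 genes, 7, 7 and 9 were over the floor in the same order.

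**Figure D4:**
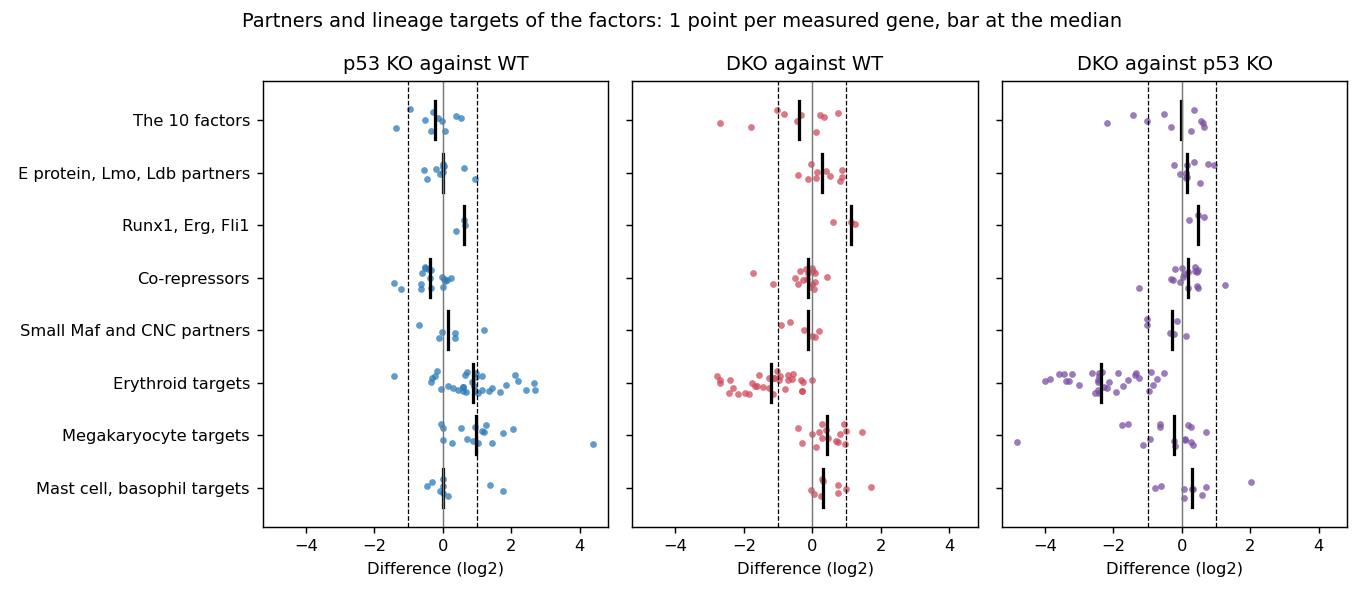
Log2 differences of the 10 factors and of measured genes in 7 lists of their partners and lineage targets, 1 point per gene, a bar at each list's median and dashed lines at 2-fold (vertical scatter has no meaning). Red cell genes lie at a median of 0.88 for p53 KO versus WT, -1.21 for DKO versus WT and -2.37 for DKO versus p53 KO, while the platelet list is at 0.42 for DKO versus WT.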

How the data were processed

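Gene expression was measured on 3 Affymetrix arrays, 1 per genotype, from biotin-labelled LSK cell RNA. The authors deposited linear signal intensities made with GCOS and MAS5 per the submitters' processing notes, with no version stated; the equal trimmed means show that they were scaled globally. Symbols came from the platform annotation, updated through the Entrez ID with the RefSeq table (GRCm38.p6) for 34754 of 34958 single-gene probe sets. Probe sets naming several genes (932) or none (9211) were left out.

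Signals under the floor of 110.4 were set to it and log2 was taken. Each gene was represented by its probe set of highest mean signal, and 12597 genes that reached the floor on at least 1 array counted as measured. "At least" marks a difference from an array under the floor. No test was made. Promoter matches came from RefSeq windows of 300 bases.

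The factors and gene lists (13 lists, 156 entries) were chosen with earlier results of these data known. The text names all 10 factors, up to 4 of the genes with the largest differences in each list and comparison, and the 3 nearest patterns of a factor that spanned 2-fold, among named genes reaching a signal of 448.4. Further list genes (Tcf12, Ssbp2, Runx1, Cbfa2t3, Tubb1, Itga2b, Selp and the 6 lower red cell genes among them) and the ratios within an array were chosen after values were seen. The calculation was tested on simulated data. Python 3.11.15 with pandas 2.3.3 and, for the normalization alternatives, limma 3.58.1 were used.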

Additional observations from a re-analysis of the deposited data

How the results depend on the processing

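No paired analysis was possible because each genotype has 1 array. Of 60 counts of factors under an alternative, 54 equalled the reported count or were within 1.5 times it. The reported counts of factors at least 2-fold higher were all 0, so agreement there was only 0 with 0. At a threshold of 1.5-fold, 2 factors were lower for p53 KO versus WT, 1 was higher for DKO versus WT and 2 were higher for DKO versus p53 KO. At 3-fold, 0 were lower for p53 KO versus WT and 1 was lower for DKO versus p53 KO. With probe sets unique to a transcript, 0 were lower for p53 KO versus WT, since Ldb1, Gata2 and Lmo2 have no such probe set. Other alternatives were quantile normalization, cyclic loess (3 iterations), rescaling, a floor at the 25th or 75th percentile, a pseudocount of 32 in place of the floor and the mean over probe sets. Of 231 factor differences under these, 226 kept their side of 2-fold, 0 of those past 2-fold turned sign and the other 5 were all of Zfpm1. Part of this agreement was fixed beforehand. Rescaling could change nothing, as the trimmed means were already equal. Neither other floor could change a factor, as every factor signal used was over 448.4. For the 7 factors with 1 probe set, the mean over probe sets could not either. Over all settings Klf1 ranged from -2.70 to -2.59 and Gata1 from -1.79 to -1.72 for DKO versus WT, and Ldb1 from -1.37 to -1.33 for p53 KO versus WT. Zfpm1 for p53 KO versus WT, near 0, ranged from -0.03 to 0.05. The red cell median for DKO versus WT was -0.88 with the mean over probe sets. The median of all measured genes for DKO versus p53 KO, reported as 0.11, ranged from 0.01 (cyclic loess) to 0.13 (floor at the 25th percentile). With 1 array per genotype, the number of arrays limits the precision of every value.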
